A study of Mus musculus with 14 samples.

Results

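The cytosolic ribosomal protein genes encode the proteins that, with ribosomal RNA, build the ribosomes of the cytosol. They were taken from the FPKM table by symbol: Rpl or Rps with a number and an optional a, x or y and digit, plus Rplp0, Rplp1, Rplp2 and Rpsa, with rows of the same symbol summed. The rule gave 78 of 22492 genes, 46 of the large (60S) and 32 of the small (40S) subunit. It leaves out Fau, whose product carries a ribosomal protein fused to a ubiquitin-like part, and the copies whose symbols end in l. Rps4y2 entered by its symbol, although GENCODE lists it under the name Rps4l as a transcribed processed pseudogene.

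RNA was sequenced from 14 libraries in 7 groups of 2, made from embryos of in vitro fertilisation (IVF), from embryos of somatic cell nuclear transfer (SCNT, an oocyte given the nucleus of a body cell) and from the cumulus cells used as nucleus donors. IVF embryos came from C57BL/6J oocytes and CAST/EiJ sperm, with 32 and 31 embryos pooled at the 1-cell stage and 25 and 25 at the 2-cell stage. SCNT embryos joined donor nuclei labelled (C57BL/6J x CAST/EiJ) F1 to B6D2F1 oocytes, with 36 embryos in each 1-cell and 40 in each 2-cell library. The last groups, of 25 embryos per library, were SCNT 2-cell embryos labelled as overexpressing (OE) Kdm4d, a histone H3 lysine 9 demethylase, or Kdm4dmut, a mutant form. Donor libraries held about 1000 cumulus cells each, and the growth protocol calls their source BDF1 females, which differs from the strain label. The sources used here do not state the age of the embryos in hours, the mutation or the route of overexpression, and SCNT and IVF embryos differ in oocyte strain as well as in origin.

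A ribosome needs its proteins in near equal numbers, and their genes are among the most strongly transcribed in growing cells. Their mRNAs begin with a run of pyrimidines, the 5′ terminal oligopyrimidine (TOP) element, through which the kinase complex mTORC1 controls their translation as a group. A fertilised mouse egg carries ribosomes stored by the oocyte, and the embryo's own genes are first transcribed strongly at the 2-cell stage. Many ribosomal protein genes have processed pseudogenes in the genome that copy their coding sequence.

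Summed FPKM per library, short RNAs left out, ran from 182731 to 345125, lowest in the SCNT 2-cell libraries, and 8450 to 10786 genes reached 1 FPKM. Kdm4d stood at 8879 and 2255 FPKM in the Kdm4d libraries, at 723 and 283 in the mutant Kdm4d libraries and under 1 elsewhere. The 13 cumulus markers summed to 25170 and 19336 FPKM in donor cells, to 1.53 and 1.97 in IVF 1-cell and to 56.7 and 76.9 in SCNT 1-cell embryos, and to between 56.1 and 172 in 2-cell groups. The 10 oocyte markers summed to 5.34 and 6.57 in donor cells and to between 2741 and 21232 in embryos. Between the replicates of a group, Spearman's rho over the 77 ribosomal protein genes tested ran from 0.950 in mutant Kdm4d to 0.993 in SCNT 2-cell embryos, a description across genes.

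Ribosomal protein transcripts were a small part of the summed FPKM of 1-cell embryos and a much larger part at the 2-cell stage. FPKM counts fragments per length of transcript and per number of mapped fragments, and libraries differ in their total FPKM, so sums are given in FPKM and as a percent of the total. The 78 genes summed to 9942 and 8776 FPKM in donor cells, 3.70% and 3.53% of all FPKM. They summed to 470 and 495 in IVF 1-cell embryos and to 540.0 and 554 in SCNT 1-cell embryos, between 0.137% and 0.172% of all FPKM. In IVF 2-cell embryos the sums were 4760 and 4535, or 1.96% and 1.93%, and in SCNT 2-cell embryos 2601 and 2213, or 1.39% and 1.21%. The Kdm4d libraries, at 4965 and 6407 (1.71% and 2.07%), lay above both the SCNT and the IVF 2-cell libraries in FPKM. The mutant Kdm4d libraries, at 2208 and 2766 (0.788% and 1.18%), overlapped the SCNT 2-cell libraries in FPKM and lay below them in percent. As FPKM is relative to the mapped fragments of each library, these sums measure neither the number of cells nor the amount of RNA per cell or embryo.

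**Figure D1:**
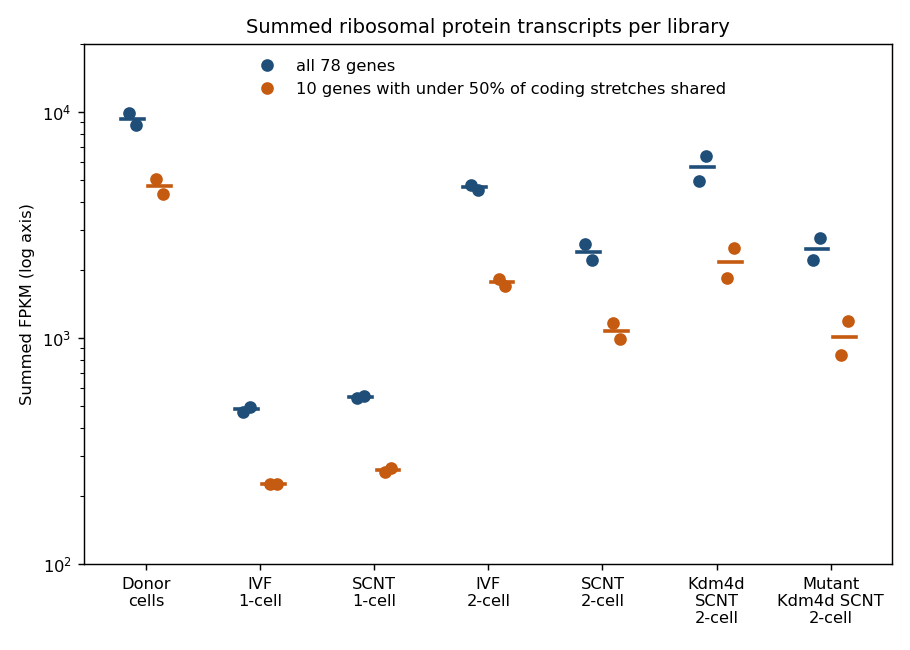
Summed FPKM (log axis) of all 78 cytosolic ribosomal protein genes and of the 10 genes with under 50% of their coding stretches shared with other genes, for each of 2 libraries (points) and their mean (bar) in 7 groups. Both sums are lowest in 1-cell embryos (470 to 554 FPKM for the 78 genes) and both are lower in SCNT and mutant Kdm4d than in IVF and Kdm4d 2-cell embryos.

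Single genes of the ribosome did not have equal levels in this table. In donor cells the highest mean was 1087 ± 62.6 FPKM (SD, n = 2) for Rps14, a protein of the 40S platform. The 10 most abundant genes held between 63.4% and 72.2% of the summed FPKM in every library. A single gene reached 1 FPKM in no library and was not tested.

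Levels were lower for genes that share more of their sequence with other genes. Of each coding sequence, the share of 50-base stretches (the read length) that also occur in another annotated gene was counted in GENCODE M21, pseudogenes included. This share was 100% for 27 of the 77 genes with a coding sequence. Spearman's rho between the share and mean FPKM over these 77 genes was -0.81 in donor cells and between -0.78 and -0.70 in the embryo groups, whereas rho between coding length and FPKM lay between -0.15 and 0.03. The 10 genes with under 50% of their coding stretches shared had a median of 395 FPKM in donor cells, and the 27 with 100% had a median of 2.59, with Rpl41 as the one above 100. The sources used here do not state how the authors placed reads that match several genes, so levels are uncertain for genes with a high share, and comparisons below are between groups for the same gene. Results for the 10 genes with a low share, among them Rps3, Rpl8, Rpl4, Rpl22, Rpl32, Rps15, Rps9 and Rps21, are given for each comparison beside those for all genes. This set was chosen after values were seen.

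**Figure D2:**
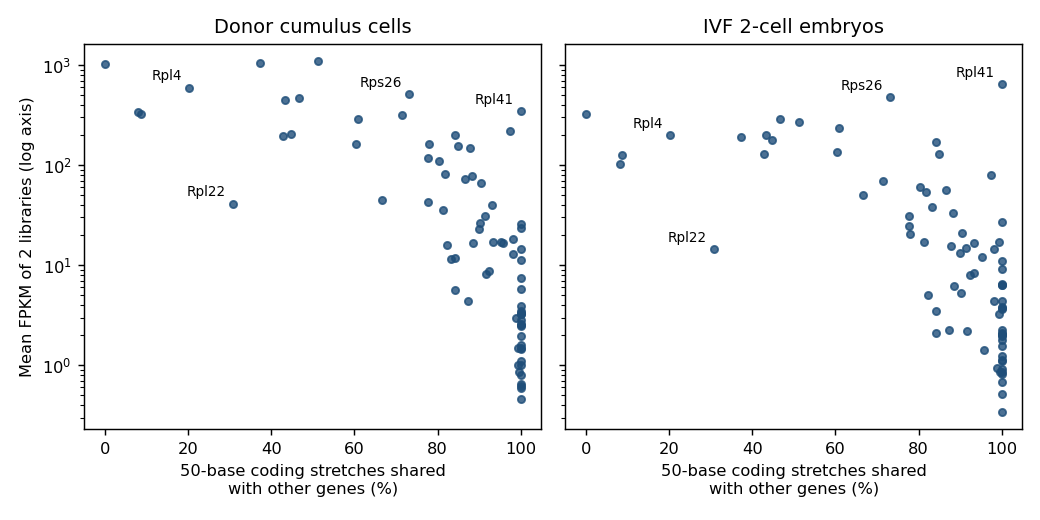
Mean FPKM of 2 libraries (log axis) against the percent of 50-base coding stretches that also occur in other annotated genes, for the 77 genes with a coding sequence, in donor cumulus cells (left) and IVF 2-cell embryos (right). Levels are lower toward high shares in both panels, with Rpl41 as the exception at 100%.

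**Figure D3:**
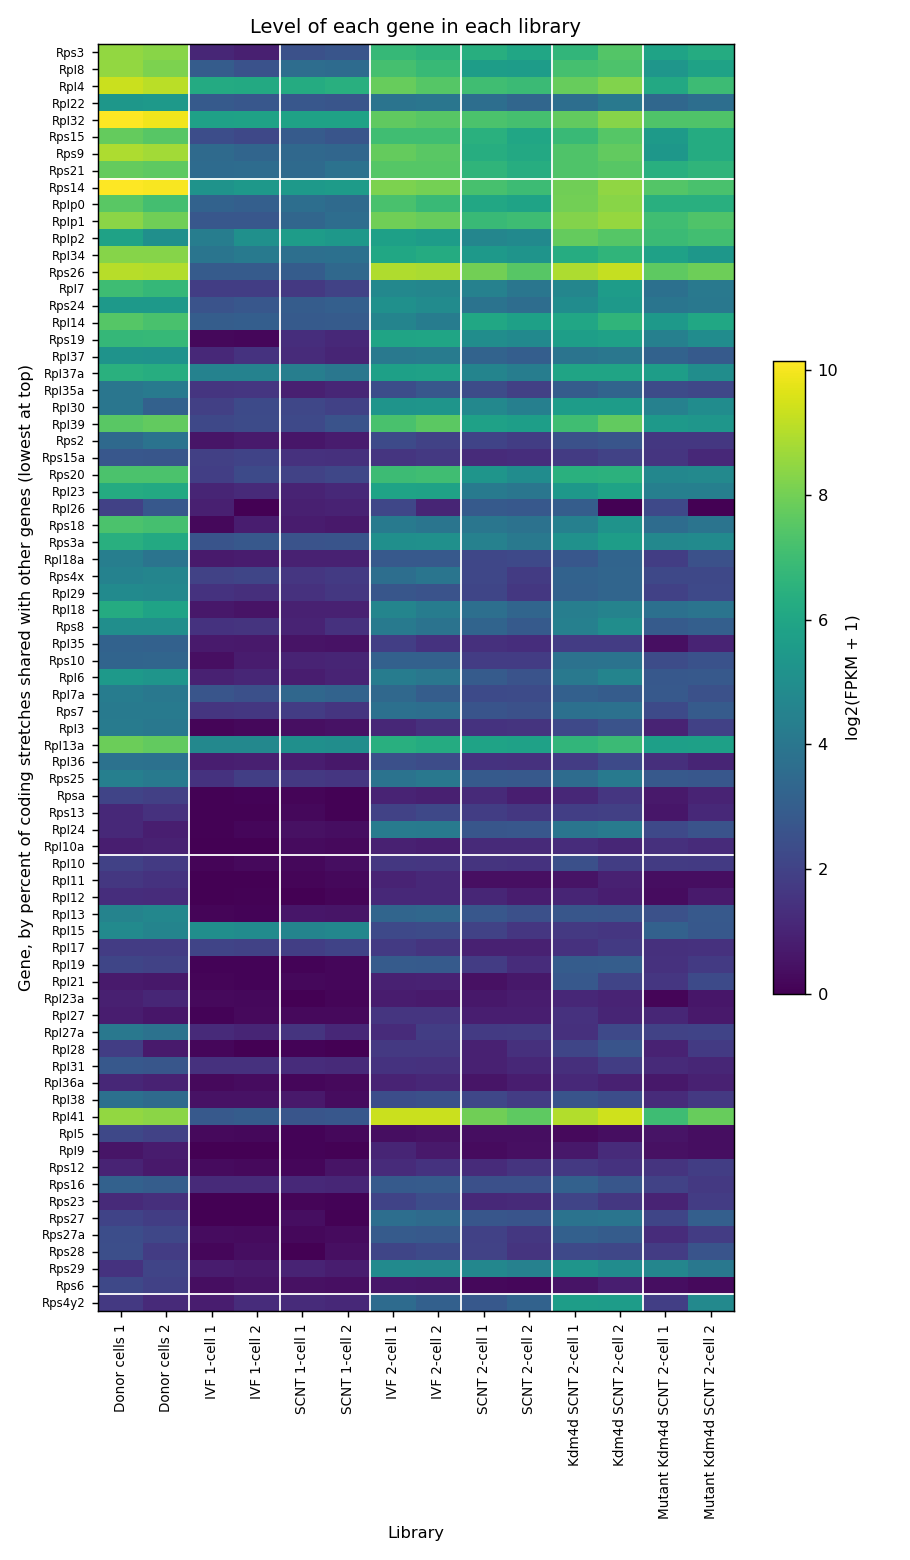
Level, as log2(FPKM + 1), of 75 of the 78 genes (rows) in each of the 14 libraries (columns), ordered by the percent of coding stretches shared with other genes, with white lines below the 8 drawn genes under 50%, at the start of the genes at 100% and above Rps4y2, which has no coding sequence in the annotation. The 1-cell columns are the darkest, and Rpl41 and Rps26 are bright in donor cells and 2-cell embryos.

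Gene starts were read for the elements known from this gene class, in RefSeq windows of 250 bases before to 50 after the annotated start (GRCm38.p6), which were found for 57 of the 78 genes. The letters TCTTTC, a pyrimidine stretch of the kind that opens TOP mRNAs, stood on the coding strand within 30 bases of the start in 12 of 57 ribosomal protein genes (21.1%) and in 754 of 27025 genes (2.79%). The ETS factor core CGGAAG was found on either strand in 40 of 57 windows (70.2%, against 18.8% of all genes), the YY1 core ATGGCG on either strand in 16 (28.1%, against 10.2%) and TATAAA on the coding strand in 5 (8.77%, against 9.77%). These are letter matches, and no binding was measured. A set of 5 start regions of genes described below is shown with the TCTTTC letters in capitals, 5′ to 3′, with positions on GRCm38.p6. Counted from the annotated start, the letters began at base 2 in Rpl35a, 3 in Rpl18 and 7 in Rps26. In Rpl4 (-18) and Rpl7a (-6) they lay wholly before the annotated transcript.
Rps26, chr10:128626483-128626512, minus strand: gccgccggatccTCTTTCgagtcttggctc
Rpl18, chr7:45718061-45718090, plus strand: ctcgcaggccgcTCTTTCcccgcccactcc
Rpl35a, chr16:33056471-33056500, plus strand: ggcttgccttccTCTTTCcgccatcttggc
Rpl4, chr9:64173357-64173386, plus strand: acaagtgacaagTCTTTCcttttcctgtgg
Rpl7a, chr2:26910789-26910818, plus strand: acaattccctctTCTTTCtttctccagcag
Each of these genes was called higher in donor cells when compared with IVF 1-cell embryos. At the 2-cell stage of IVF embryos all 5 rose as well, and in SCNT embryos Rpl7a fell while the others rose, as described next. The Rpl7a fall lost its call with FPKM scaled to equal sums (-0.34, limma, adjusted p = 0.126). The Rpl4 rise in SCNT embryos (0.66) lost its call without any 1 of the 4 libraries (adjusted p from 0.0614 to 0.15) and without the filter on low values (adjusted p = 0.0636).

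The comparison of donor cells with IVF 1-cell embryos sets the range between a somatic cell and the 1-cell embryo. Of the 77 genes tested, 72 were higher in donor cells and 0 lower, where 42.4% of all 13451 genes tested were called higher and 35.5% lower (limma, adjusted p under 0.05 for every call here and below). At an unadjusted p under 0.05 the counts were 74 and 0. The median difference in log2(FPKM + 1) was 2.59 for the 77 genes and 0.13 for all genes tested. Rps3, a 40S protein at the mRNA entry, stood at 358 and 319 FPKM in donor cells and 1.13 and 0.851 in IVF 1-cell embryos, which is 7.41 ± 0.23 (SE, adjusted p = 5.6e-11) on the log2 scale. Rps18 and Rps19 were next, at 155 and 142 against 0.172 and 0.739 FPKM and at 109 and 109 against 0.173 and 0.139 FPKM, log2 differences of 6.71 ± 0.26 (SE, adjusted p = 2.45e-10) and 6.57 ± 0.17 (SE, adjusted p = 1.55e-11). The libraries of the groups did not overlap in any of these, as the rule for naming them required. Rps19 is the gene most often mutated in Diamond-Blackfan anaemia, a failure of red cell production.

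The 5 genes not called were Rpl15, Rpl17, Rpl21, Rpl26 and Rps4y2. Rpl15, a 60S protein, had 28.3 and 23.0 FPKM in donor cells and 31.6 and 28.4 in IVF 1-cell embryos, so that its 1-cell level was as high as its somatic one. All 10 genes with a low share were higher in donor cells. Rplp2, a protein of the acidic stalk that binds elongation factors, was called higher at 57.1 and 32.1 against 18.9 and 32.8 FPKM, with overlapping libraries. Its log2 difference of 0.76 ± 0.27 (SE, adjusted p = 0.0222) lost the call without donor replicate 1 (0.35, adjusted p = 0.275) and without IVF 1-cell replicate 1 (0.38, adjusted p = 0.264).

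SCNT and IVF embryos were next compared at the 1-cell stage, before the main activation of the genome. Of the 77 genes, 2 were higher in SCNT embryos and 0 lower, against 1.34% and 0.974% of all genes tested (limma, 9 and 2 at an unadjusted p under 0.05). Rps3 stood at 4.69 and 5.32 FPKM in SCNT and 1.13 and 0.851 in IVF embryos, apart by 1.59 ± 0.23 (SE, adjusted p = 0.00446) on the log2 scale. Rps19 stood at 1.48 and 1.26 against 0.173 and 0.139 FPKM, a difference of 1.03 ± 0.17 (SE, adjusted p = 0.00942). Rps3 was the one called among the 10 genes with a low share. The median difference over the 77 genes was 0.07, as for all genes tested (0.07).

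Cumulus markers moved with this result: 11 of 13 had a higher mean in SCNT than in IVF 1-cell embryos, and their sums did not overlap (56.7 and 76.9 against 1.53 and 1.97 FPKM). Spp1 and Akr1c18, the highest in donor cells, stood at 22.1 and 27.8 and at 23.9 and 38.8 FPKM in SCNT 1-cell embryos, and Amh was at 0 in both groups. The part of cumulus RNA in the result was not tested. The Rps3 call was lost without IVF replicate 2 (adjusted p = 0.0732) and without SCNT replicate 2 (adjusted p = 0.0697), and the Rps19 call without any 1 of the 4 libraries (adjusted p from 0.0737 to 0.129). With a weight for each group, 16 genes were higher and 6 lower.

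From the 1-cell to the 2-cell stage of IVF embryos, when the embryo begins to transcribe its own genome, 69 of the 77 genes rose and 2 fell, against 30.4% of all genes called higher and 37.2% lower. The median difference was 2.02, and -0.06 for all genes tested. The summed FPKM was 9.63 times as high at the 2-cell stage, 14.5 times for the 40S genes and 7.11 times for the 60S genes. Rpl41, the smallest and most basic protein of the ribosome, went from 6.05 and 6.67 FPKM to 644 and 649 FPKM, a log2 difference of 6.46 ± 0.23 (SE, adjusted p = 1.07e-09). Its listed FPKM was then the highest of the members. Rps26, at the mRNA exit of the 40S subunit, went from 6.44 and 6.53 to 494 and 467 FPKM, a difference of 6.01 ± 0.20 (SE, adjusted p = 8.07e-10). Rps19 rose from 0.173 and 0.139 to 59.0 and 61.3 FPKM, by 5.72 ± 0.17 (SE, adjusted p = 4.22e-10). The order of listed FPKM changed at the same time: Rpl4 was the highest member in both 1-cell groups, with 71.3 ± 1.97 FPKM (SD, n = 2) in IVF embryos. It rose to 198 ± 32.3, below Rpl41 and Rps26, among others. The share of coding stretches found in other genes was 20.2% for Rpl4, 73.2% for Rps26 and 100% for Rpl41. Their order of abundance is therefore uncertain.

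Of the genes that fell, Rpl15 went from 31.6 and 28.4 to 3.66 and 4.04 FPKM, a difference of -2.67 ± 0.18 (SE, adjusted p = 1.19e-07), opposite to nearly all other members. Rpl17, at the exit tunnel, went from 3.28 and 3.04 to 2.31 and 1.90 FPKM and was the smaller fall. When 1 library was left out, 1 gene in place of 2 was called lower, whichever library it was. Both have all their coding stretches in other annotated genes. Not called were Rpl26, Rpl27a, Rpl31, Rpl5, Rps15a and Rps6. Rps6, the target of S6 kinase, was under 1 FPKM in all embryo libraries, and so was Rpl5, which with Rpl11 and 5S RNA binds the p53 regulator Mdm2. All 10 genes with a low share rose.

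In SCNT embryos the stage change went the same way with smaller steps. Of 77 genes 61 rose and 4 fell, against 35.5% and 31.5% of all genes, with a median of 1.36 (all genes 0.06). All 61 were among the 69 that rose in IVF embryos, which is 88.4% of those. The share called higher in IVF embryos over all 77 genes was 89.6%, so a large overlap follows from that share alone. The summed FPKM of SCNT embryos was 4.40 times as high as at the 1-cell stage. All 10 genes with a low share rose here too. Rpl41 went from 5.42 and 5.75 to 243 and 197 FPKM (5.06 ± 0.23 (SE, adjusted p = 1.91e-08)) and Rps26 from 6.84 and 9.68 to 251 and 183 FPKM (4.56 ± 0.20 (SE, adjusted p = 1.33e-08)). The other 8 were Rpl11, Rpl21, Rpl29, Rpl37a, Rpl7a, Rpl9, Rplp2 and Rps4x, and for 6 of them, all but Rpl21 and Rpl9, the difference between the stage changes passed the test given below.

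Rpl15 fell from 22.7 and 24.7 to 2.96 and 2.05 FPKM, by -2.83 ± 0.18 (SE, adjusted p = 1.6e-07), and Rpl17 fell with it. The other falls were of Rpl7a, a 60S protein whose start is shown above, from 9.61 and 8.28 to 3.90 and 4.03 FPKM (-0.999 ± 0.19, SE, adjusted p = 0.000633), and of Rplp2. Rplp2 went from 47.3 and 41.9 to 24.1 and 27.5 FPKM (-0.77 ± 0.27 (SE, adjusted p = 0.0251)), a call lost without any 1 of the 4 libraries (adjusted p from 0.0545 to 0.121). With FPKM scaled to equal sums, which moved the median of all genes from 0.06 to 0.57, 2 genes in place of 4 were lower. The calls lost there were those of Rpl7a (-0.34, adjusted p = 0.126) and Rplp2 (-0.0071, adjusted p = 0.986).

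An interaction term in the fit compared the stage changes with each other. It was lower in SCNT embryos for 37 of the 77 genes and higher for 1, against 12.7% and 16.5% of all genes, with a median of -0.77 (all genes 0.17). Of the 61 genes that rose in both kinds of embryo, 56 had the smaller step in SCNT embryos, a count that was not made over all genes. Rpl8, a 60S protein near the catalytic centre, went from 6.64 and 4.92 to 142 and 113 FPKM in IVF and from 11.4 and 10.6 to 49.0 and 48.1 in SCNT embryos, an interaction of -2.20 ± 0.29 (SE, adjusted p = 0.000316). The interactions of Rps3 and Rps19, which began higher in SCNT 1-cell embryos, were -2.11 ± 0.33 (SE, adjusted p = 0.000864) and -2.08 ± 0.24 (SE, adjusted p = 0.000159). Between SCNT and IVF embryos at the 2-cell stage, Rps3 was not called and Rps19 was called lower. The gene with the larger step was Rpl14, a 60S protein, from 6.88 and 7.19 to 22.8 and 17.9 FPKM in IVF and from 6.25 and 6.57 to 64.7 and 53.4 in SCNT embryos (1.61 ± 0.33 (SE, adjusted p = 0.00402)). Of the 10 genes with a low share, 6 had a lower stage change in SCNT embryos and 0 a higher one (limma, 7 and 0 at an unadjusted p under 0.05). After quantile normalization the calls of Rps15, Rps21 and Rps9, among others, were lost (adjusted p = 0.209, 0.0943 and 0.0726), and that of Rps15 was also lost at equal sums (adjusted p = 0.0634) and without any 1 of 5 libraries, which were IVF 1-cell replicate 2, SCNT 1-cell replicate 1, both IVF 2-cell replicates and SCNT 2-cell replicate 2 (adjusted p from 0.0523 to 0.0751).

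**Figure D4:**
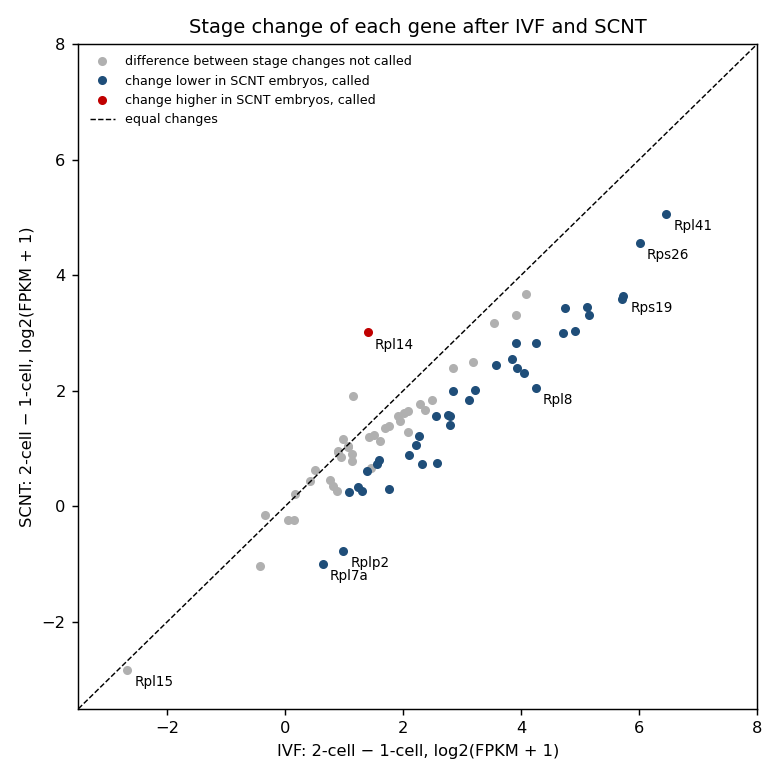
Change from the 1-cell to the 2-cell stage in log2(FPKM + 1) of each of 77 genes in SCNT embryos (vertical axis) against IVF embryos (horizontal axis), with the dashed line at equal changes and colours for genes whose interaction was called lower (37) or higher (1) in SCNT embryos. Most points lie below the line, Rpl14 lies above it, and Rpl15 is low on both axes.

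At the 2-cell stage itself, SCNT embryos had lower levels than IVF embryos for 44 of the 77 genes and higher for 1, against 16.6% and 30.3% of all genes. The median difference was -0.71 for these genes and 0.23 for all genes, and the summed FPKM was 0.518 times that of IVF embryos (0.609 times for the 10 genes with a low share). Rps20, a protein of the 40S head, stood at 38.5 and 29.8 FPKM in SCNT and 125 and 131 in IVF embryos (-1.89 ± 0.17 (SE, adjusted p = 6.63e-06)). Rps4x, the X-linked 40S protein, stood at 3.49 and 2.39 against 11.7 and 14.6 (-1.85 ± 0.18 (SE, adjusted p = 1.24e-05)), and Rpl23 at 17.4 and 15.0 against 57.7 and 55.9 FPKM (-1.75 ± 0.17 (SE, adjusted p = 1.18e-05)). No library of one group reached the other for these genes, as the rule for naming them required. Rpl36a, also X-linked, stood at 0.474 and 0.738 against 0.989 and 1.21 FPKM and was not called. Rpl41 (-1.56), Rpl39 (-1.66), Rpl24 (-1.45), Rps26 (-1.16) and the ubiquitin fusion Rps27a (-1.07) were also lower on the log2 scale.

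Rpl14 was the one gene higher in SCNT embryos, at 64.7 and 53.4 against 22.8 and 17.9 FPKM (1.49 ± 0.23 (SE, adjusted p = 0.000336)). Among the genes with a low share, 6 of 10 were lower and 0 higher (limma, 8 and 0 at an unadjusted p under 0.05). The Rpl4 call (-0.65) was lost without any 1 of the 4 libraries (adjusted p from 0.0641 to 0.256) and turned to 0.0056 after quantile normalization. The Rps15 call (-0.81) was lost without either IVF library or SCNT replicate 2 (adjusted p from 0.0785 to 0.152), at equal sums (adjusted p = 0.184) and after quantile normalization (adjusted p = 0.391). Scaled to equal sums, which moved the median of all genes from 0.23 to 0.50, 34 genes were lower and 2 higher, and the median of the 77 was -0.42. The 2-cell markers moved with these genes, at 238 and 248 FPKM in SCNT and 2093 and 1975 in IVF embryos over 7 genes, of which Tcstv1 and Tcstv3 were listed at 0 in all libraries. The 10 oocyte markers did so too, at 2741 and 2759 FPKM in SCNT and 7842 and 8159 in IVF embryos. Their part in the result was not tested.

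With Kdm4d overexpressed, 56 of the 77 genes were higher than in SCNT 2-cell embryos and 0 lower, against 21% and 18.5% of all genes, with a median of 0.90 (all genes -0.02). By limma at an unadjusted p under 0.05 the counts were 63 and 0. This comparison shares the SCNT 2-cell libraries with the preceding one, so a gene with a low SCNT value would lie low in one and high in the other. Of the 10 genes with a low share 9 were higher and 0 lower (limma, 9 and 0 at an unadjusted p under 0.05). Among these, Rpl32, Rpl4, Rps15, Rps21, Rps3 and Rps9 lost the call at equal FPKM sums (limma, adjusted p from 0.0688 to 0.667). The same genes lost it after quantile normalization (adjusted p from 0.079 to 0.724), where Rpl32 turned to -0.14. Rplp2 stood at 216 and 178 FPKM against 24.1 and 27.5 (2.88 ± 0.27 (SE, adjusted p = 2.03e-05)), and Rplp0, the scaffold of the stalk, at 250.5 and 324 against 66.6 and 57.4 FPKM (2.19 ± 0.19 (SE, adjusted p = 1.19e-05)). The third stalk protein, Rplp1, stood at 308 and 371 against 115 and 127 FPKM (1.47 ± 0.19 (SE, adjusted p = 0.00012)), so that all 3 stalk genes were higher. Rps4y2, the pseudogene, stood at 48.5 and 47.2 against 5.91 and 8.10 FPKM (2.62 ± 0.65 (SE, adjusted p = 0.00729)), and was no longer called without SCNT 2-cell replicate 1 (adjusted p = 0.0514).

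This result depended on the scale. The Kdm4d libraries had larger sums of FPKM than the SCNT 2-cell libraries. At equal sums, which moved the median of all genes from -0.02 to -0.47, 22 genes were higher and 2 lower, and the median of the 77 was 0.27. Without Kdm4d replicate 1, 1 gene was lower. As a percent of all FPKM the summed genes were 1.45 times as high as in SCNT embryos, and in FPKM 2.36 times. The oocyte markers moved with these genes, at 8728 and 8592 FPKM with Kdm4d against 2741 and 2759 in SCNT embryos. So did the 2-cell markers, at 1560 and 2591 against 238 and 248. The cumulus markers summed to 118 and 172 against 59.2 and 56.1 FPKM, and to 84.0 and 85.8 in IVF 2-cell embryos. Of these 13 markers, 3 and 3 reached 1 FPKM with Kdm4d and 6 and 6 in SCNT embryos. The part of the markers in the result was not tested.

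Mutant Kdm4d gave few such calls. Of 77 genes 5 were higher than in SCNT 2-cell embryos and 2 lower, against 11.3% and 6.42% of all genes, with a median of 0.04 (all genes 0.01). The higher genes were Rplp2 at 120.0 and 133 FPKM (2.25 ± 0.27 (SE, adjusted p = 0.00103)), Rpl15 at 7.90 and 5.94 against 2.96 and 2.05 (1.18 ± 0.18 (SE, adjusted p = 0.0026)), Rpl37a, Rpl21 and Rps10, and the lower ones were Rps13 and Rps16. Of the 10 genes with a low share 0 were called in either direction (limma, also 0 at an unadjusted p under 0.05). At equal sums the counts were 3 higher and 19 lower, after quantile normalization 6 and 9, and the lower count was 11 without mutant replicate 2, 1 without mutant replicate 1 or SCNT 2-cell replicate 2 and 0 without SCNT 2-cell replicate 1. Without SCNT 2-cell replicate 2 the higher count was 3. Rpl37a was not called without SCNT 2-cell replicate 2 (adjusted p = 0.0804) or mutant Kdm4d replicate 1 (adjusted p = 0.0587).

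Compared directly, 56 of 77 genes were higher with Kdm4d than with the mutant and 1 lower, against 21.4% and 22.5% of all genes, with a median of 0.92 (all genes -0.09). This comparison has no group in common with that of SCNT with IVF 2-cell embryos, but both take the spread of each gene from all 14 libraries. Of the 44 genes lower in SCNT than in IVF embryos, 37 were higher with Kdm4d than with the mutant, which is 84.1% of the former and 66.1% of the latter. The share called higher over all 77 genes was 72.7%, so a large overlap follows from that share alone. Rpl39, a small protein of the exit tunnel, stood at 131 and 205 FPKM with Kdm4d and 42.4 and 39.6 with the mutant (1.98 ± 0.21 (SE, adjusted p = 4.81e-05)). Rpl41 stood at 500.4 and 683 against 126 and 219.8 FPKM (1.81 ± 0.23 (SE, adjusted p = 0.000158)). In both genes the lower Kdm4d library was above the higher mutant library, as the rule for naming them required. Rpl15 was the gene lower with Kdm4d, at 2.25 and 2.00 against 7.90 and 5.94 FPKM (-1.33 ± 0.18 (SE, adjusted p = 0.000228)).

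Of the 10 genes with a low share, 9 were higher with Kdm4d than with the mutant, and Rpl22, an RNA-binding 60S protein that cells can lose, was not called (0.36 ± 0.18 (SE, adjusted p = 0.131)). The mutant libraries differed from each other in Rps4y2, at 2.64 and 26.7 FPKM, against 48.5 and 47.2 with Kdm4d. Its difference of 2.28 ± 0.65 (SE, adjusted p = 0.0142) became 0.82 without mutant replicate 1 and 3.75 without mutant replicate 2, and was not called without Kdm4d replicate 1 (adjusted p = 0.0502) or 2 (adjusted p = 0.0624). With a weight for each group, or with only these 2 groups in the fit, 31 genes were higher. Among the genes with a low share, Rpl32, Rps21 and Rps3 lost the call in both fits (limma, adjusted p from 0.052 to 0.242). The Rpl32 call was also lost at equal sums (adjusted p = 0.0527) and after quantile normalization (adjusted p = 0.22). The fitted weights were 0.337 for Kdm4d and 0.263 for mutant Kdm4d libraries and from 0.865 to 3.08 for the other groups, a low weight meaning a wide spread between replicates. The 2-cell markers stood at 1560 and 2591 FPKM with Kdm4d and at 113 and 368 with the mutant, and the oocyte markers at 8728 and 8592 against 9169 and 4941.

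Against IVF 2-cell embryos, Kdm4d embryos had 9 of 77 genes higher and 4 lower, where 16.6% and 3.7% of all genes were called, with a median of 0.14 (all genes 0.18). Rplp2 stood at 216 and 178 against 52.8 and 47.7 FPKM (1.94 ± 0.27 (SE, adjusted p = 0.000738)) and Rpl14 at 63.0 and 98.1 against 22.8 and 17.9 FPKM (1.91 ± 0.23 (SE, adjusted p = 0.000352)). Rpl14 was also high in SCNT embryos without Kdm4d, so its level in SCNT 2-cell groups lay above the IVF level in each of the 3 groups. The genes called lower were Rpl13, Rpl15, Rps20 and Rps4x, but 0 of these 4 calls were left without IVF replicate 1, IVF replicate 2 or Kdm4d replicate 2, and 2 without Kdm4d replicate 1. Of the 10 genes with a low share 0 were called (limma, 2 higher and 0 lower at an unadjusted p under 0.05). Rps4x stood at 8.17 and 8.82 against 11.7 and 14.6 FPKM and Rps20 at 85.1 and 90.2 against 125 and 131. Without Kdm4d replicate 1, 16 genes were higher, and without IVF replicate 1 or 2, 4 or 5. At equal sums the counts were 4 higher and 6 lower, and after quantile normalization 4 and 7.

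Mutant Kdm4d embryos were lower than IVF 2-cell embryos in 46 of 77 genes and higher in 5, against 18.1% and 36.4% of all genes, with a median of -0.63 (all genes 0.28). Rps20 stood at 24.7 and 26.6 against 125 and 131 FPKM (-2.28 ± 0.17 (SE, adjusted p = 1.53e-06)), Rpl39 at 42.4 and 39.6 against 149 and 190.1 (-2.01 ± 0.21 (SE, adjusted p = 1.57e-05)) and Rpl41 at 126 and 219.8 against 644 and 649 (-1.95 ± 0.23 (SE, adjusted p = 4.45e-05)). Among the genes with a low share, 7 of 10 were lower and 0 higher (limma, 8 and 0 at an unadjusted p under 0.05). This comparison shares its IVF libraries with those of SCNT and of Kdm4d with IVF embryos, so the counts are not independent.

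**Figure D5:**
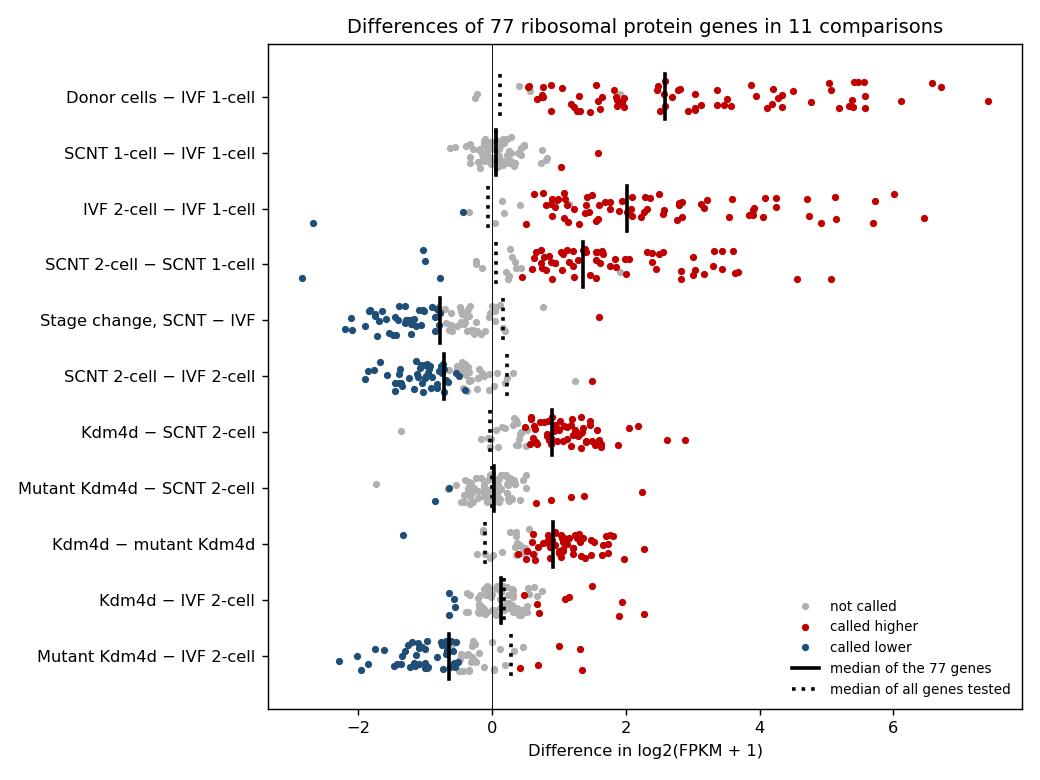
Difference in log2(FPKM + 1) of each of 77 genes (points) in 11 comparisons, red where called higher, blue where called lower and grey where not called, with the median of the 77 genes (solid bar) and of all genes tested (dotted bar). The solid bar lies to the right of the dotted one for the stage change within IVF and within SCNT embryos and for Kdm4d against SCNT or mutant Kdm4d embryos. It lies to the left for the stage change of SCNT against that of IVF embryos, and for SCNT and mutant Kdm4d against IVF 2-cell embryos.

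Genes beside the ribosomal proteins were read in 3 lists. The other TOP mRNAs, translation factors and related genes, had 19 of 20 members tested. In IVF embryos 9 rose and 5 fell at the 2-cell stage, and in SCNT embryos 5 rose and 9 fell (medians 0.03 and -0.44), where 30.4% and 37.2% of all genes were called higher and lower in the former and 35.5% and 31.5% in the latter. Pabpc1, the poly(A)-binding protein, rose from 0.548 and 0.620 to 45.0 and 38.9 FPKM in IVF embryos (4.76 ± 0.18 (SE, adjusted p = 1.35e-09)), whereas Btf3, part of the nascent chain complex, fell from 144 and 144 to 38.9 and 41.3 (-1.82 ± 0.20 (SE, adjusted p = 7.18e-06)). Between SCNT and IVF 2-cell embryos, where 16.6% of all genes were lower and 30.3% higher, 13 of the 19 were lower and 0 higher (median -0.60; limma, 13 and 1 at an unadjusted p under 0.05), and with Kdm4d (all genes 21% higher and 18.5% lower) 15 were higher than in SCNT embryos and 0 lower (median 0.87; limma, 16 and 0 at an unadjusted p under 0.05). Eef2, the elongation factor that moves the ribosome along, stood at 32.8 and 27.8 FPKM in IVF, 11.6 and 9.71 in SCNT, 33.5 and 38.8 with Kdm4d and 6.00 and 11.8 with the mutant.

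The 7 paralogues whose symbols end in l or l1 were lower in SCNT than in IVF 2-cell embryos in 6 cases and higher in 0 (all genes 16.6% and 30.3%; limma, 6 and 0 at an unadjusted p under 0.05). Rpl10l, a testis-type copy of Rpl10, stood at 50.6 and 45.7 FPKM in IVF and 0.496 and 0.928 in SCNT 2-cell embryos, and Rpl10 itself at 2.11 and 2.04 and 1.87 and 1.82, not called. Rpl36al stood at 143 and 151 against 32.4 and 30.5 FPKM (-2.19 ± 0.20 (SE, adjusted p = 8.45e-06)). The last list, of mTORC1 and of regulators of TOP mRNAs, had 19 genes tested, of which 11 rose and 1 fell at the IVF 2-cell stage (all genes 30.4% and 37.2%), and 7 were lower and 2 higher in SCNT than in IVF 2-cell embryos (all genes 16.6% and 30.3%). Larp1b, a relative of the TOP-binding protein Larp1, rose from 2.24 and 2.40 to 259 and 233 FPKM in IVF embryos (6.22 ± 0.19 (SE, adjusted p = 4.96e-10)) and stood at 68.5 and 60.5 FPKM in SCNT 2-cell embryos (-1.92 ± 0.19 (SE, adjusted p = 1.61e-05) against IVF). Mtor itself stood at 1.76 and 2.33 FPKM in IVF and 2.80 and 2.54 in SCNT 2-cell embryos, and Larp1 at 3.02 and 2.78 and 2.16 and 1.60.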

How the data were processed

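Per the labels' protocols, cDNA was made from lysates with the SMARTer Ultra Low Input kit, fragmented and sequenced as single-end reads of 50 bases. The authors deposited one table of FPKM for 23697 rows and 14 libraries, made on mm9 with Cufflinks 2.0.2 and Novoalign, per the submitters' processing notes. The sources used here do not state the depth in reads, the annotation or the handling of multiply mapping reads, so no counting interval could be set.

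After 805 rows of short RNAs were left out and 630 rows that share a symbol were summed, 13451 genes were tested, those that reached 1 FPKM in 2 or more libraries. The scale was log2(FPKM + 1), which understates changes of low genes. All 7 group means were fitted in 1 model with limma 3.58.1 (R 4.3.3; moderated statistics with a trend, 7 residual degrees of freedom, median prior 4.72), with Benjamini-Hochberg adjustment over all tested genes within each comparison, with calls under 0.05. The same script was tested on simulated data. Nothing in the labels says that replicates were separate experiments, so p-values reflect no more than how these libraries spread.

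The members, the lists, the tests and the alternatives were chosen with earlier results of these data known. The genes named were, per comparison, up to 3 called genes in each direction, taken by size of difference where libraries did not overlap and a group mean reached 5 FPKM, and genes fixed by role. Others named among few calls were chosen after their values were seen, and the text gives a selection; some genes are not reported here by name. Shared stretches were counted in GENCODE M21 transcripts, 1 per gene, for 50 bases. Alternatives were a pseudocount of 0.1, no filter, quantile normalization, equal FPKM sums, group weights, a replicate block, fits of the compared groups only and leaving out each library. No protein sequences were used here.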

Additional observations from a re-analysis of the deposited data

Results flagged for a closer look

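The stage change from 1-cell to 2-cell embryos differed between SCNT and IVF embryos by the interaction test in limma for 38 of the 77 ribosomal protein genes tested, lower in SCNT for 37 and higher for 1, against 12.7% and 16.5% of all genes. The genes singled out by size were Rpl8 at -2.20, Rps3 at -2.11 and Rps19 at -2.08 on the log2 scale, lower in SCNT embryos, and Rpl14 at 1.61, higher in SCNT embryos. In IVF embryos Rpl8 rose by 4.24 and in SCNT embryos by 2.05, and Rpl14 rose by 1.40 and by 3.01. Between SCNT and IVF 2-cell embryos Rps3 was not called and Rps19 was called lower. Both were already higher in SCNT than in IVF 1-cell embryos, by 1.59 and 1.03, and cumulus markers were higher there too. The part of cumulus RNA in these values was not tested.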

How the results depend on the processing

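Each count of genes called higher or lower was recomputed under every alternative; without the low-value filter all counts stayed within 1.5 times. At equal FPKM sums the counts that moved further were 1 higher for SCNT against IVF 1-cell embryos, 1 lower for the IVF and 2 lower for the SCNT stage change, 2 higher for SCNT against IVF 2-cell embryos, 22 higher and 2 lower for Kdm4d against SCNT, 3 higher and 19 lower for mutant Kdm4d against SCNT, and 4 higher for Kdm4d against IVF embryos. Quantile normalization gave 1 lower for donor cells against IVF 1-cell embryos, 9 lower for mutant Kdm4d against SCNT, 4 higher and 7 lower for Kdm4d against IVF, and 2 higher for mutant Kdm4d against IVF embryos. It also turned the sign of 2 named genes: Rpl4 in SCNT against IVF 2-cell embryos became 0.0056, and Rpl32 in Kdm4d against SCNT embryos became -0.14; the cause was not tested. A pseudocount of 0.1 gave 8 higher and 1 lower for SCNT against IVF 1-cell embryos, 1 lower for the IVF stage change and 2 lower for Kdm4d against IVF embryos. Group weights gave 16 higher and 6 lower for SCNT against IVF 1-cell, 2 higher for SCNT against IVF 2-cell, 3 higher and 0 lower for mutant Kdm4d against SCNT, 31 higher for Kdm4d against mutant, 0 lower for Kdm4d against IVF and 3 higher for mutant Kdm4d against IVF embryos. Fits of the compared groups only gave 12 and 5, 2, 1 and 0, 31, 0 and 3 in the same order. Without each library in turn, the counts ran from 0 to 1 higher for SCNT against IVF 1-cell embryos, were 1 lower for the IVF stage change, and ran from 0 to 1 lower for Kdm4d against SCNT, 3 to 5 higher and 0 to 11 lower for mutant Kdm4d against SCNT, and 4 to 16 higher and 0 to 2 lower for Kdm4d against IVF embryos. Same-numbered libraries shared only a number: of 21 pairs of groups, 1 had correlated deviations over 0.1 and 2 under -0.1. The replicate block gave 1 lower for the IVF stage change and 2 lower for Kdm4d against IVF embryos and kept all other counts within 1.5 times. With 2 libraries per group and an unknown depth, small differences of low genes were not detectable.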
